A study of Mus musculus with 96 samples.

Results

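Heat shock proteins and their DnaJ co-chaperones were followed in 2 brain regions of 48 mice, the nucleus accumbens (NAc), a part of the striatum, and the prefrontal cortex (PFC). The genes were taken by symbol: protein-coding genes of the GENCODE M21 annotation (mouse build GRCm38) whose symbols start with Hspa, Hspb, Hspd, Hspe, Hsph, Hsp90, Dnaja, Dnajb or Dnajc. That gave 67 of the 19918 genes in the count tables. The other 7 genes that meet the rule in the annotation (Dnajb7, Dnajb8, Dnajc22, Dnajc5b, Dnajc5g, Hspa14 and Hspb9) were not analysed here. Hspb11, Hspbap1 and Hspbp1 are in the set by their symbols alone. All 67 genes passed the filter on low counts in PFC and across the regions, and 66 passed in NAc, where Hspb7 was too low.

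The mice came from the 4 core genotypes model (FCG), in which the Y chromosome lacks the testis-determining gene Sry (written Y-). Sry is supplied as a transgene, so that sex chromosomes and gonads vary apart from each other. XX and XY- mice have ovaries, and XXSry and XY-Sry mice have testes. Testes thus come only with the transgene, and the effects of gonads and of the transgene cannot be told apart here. Stressed mice underwent subchronic variable stress, which was 3 sessions of restraint of 1 hour each within 6 days, and the controls were not stressed. XX mice comprised 5 controls and 6 stressed animals, XXSry mice 6 of each, XY- mice 7 controls and 6 stressed, and XY-Sry mice 6 of each. Tissue punches of both regions came from each mouse. The labels used here give no age. They divide the mice over 3 cohorts, which held 11 controls and 12 stressed mice, 10 and 2, and 3 and 10.

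Library totals ran from 67.55 to 104.4 M counts in PFC and from 45.9 to 120.8 M in NAc. Markers of striatal projection neurons summed to 172 to 274 CPM (counts per M library counts, abbreviated CPM) in PFC and to 1545 to 4976 CPM in NAc, as the region labels say. Cortical excitatory neuron markers summed to 1980.0 to 2365 CPM in PFC and to 78.1 to 1056 CPM in NAc, so their level varied widely among the NAc punches. In bulk tissue, fewer cells of a type and less RNA per cell cannot be told apart, which holds for each comparison of levels here.

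Chaperones of these families bind unfolded or partly folded proteins. HSP70 proteins hold and release short stretches of a client in a cycle driven by ATP. DnaJ proteins carry a J domain that starts ATP hydrolysis by HSP70, bring clients to it and fix where in the cell it acts, and nucleotide exchange factors such as the HSP110 proteins reset it. HSP90 takes over clients such as kinases and steroid receptors, including the glucocorticoid receptor. Small heat shock proteins hold unfolding proteins without ATP, and the Hspd1 and Hspe1 chaperonin folds proteins inside mitochondria. Heat and other protein damage raise a subset through heat shock factor 1, above all the inducible HSP70 genes Hspa1a and Hspa1b, while misfolding in the endoplasmic reticulum (ER) raises ER chaperones such as Hspa5 (BiP) and Hsp90b1. Neurons also use dedicated members at synapses, among them Dnajc5 (cysteine string protein) on synaptic vesicles and Dnajc6 (auxilin), which helps HSP70 strip the clathrin coat.

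Hsp90ab1, the constitutive HSP90 of the cytosol, and Hspa8, the constitutive HSP70, were the most abundant members. Levels between genes are compared as RPKM, here CPM per kilobase of exon with both regions scaled together, averaged over the 48 libraries of a region. Hsp90ab1 led in both regions, with 550.0 ± 25.2 RPKM (SD, n = 48) in PFC and 440.0 ± 21.3 RPKM in NAc. Hspa8 followed with 279.8 ± 16.9 RPKM in PFC and 203 ± 16.1 RPKM in NAc, and the stress-inducible cytosolic Hsp90aa1 came next with 246 ± 16.2 RPKM and 203 ± 21.5 RPKM. In NAc Hspa8 and Hsp90aa1 did not differ beyond their spread. Hsp90b1, the HSP90 of the ER, had 92.1 ± 5.67 RPKM in PFC and 107 ± 9.77 RPKM in NAc. The fifth place went to Dnajc6 in PFC, with 91.5 ± 3.74 RPKM and so level with Hsp90b1, and to Hspa5 in NAc, with 65.7 ± 7.0 RPKM.

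The inducible HSP70 genes had low levels. Hspa1a had 1.17 ± 0.204 RPKM in PFC and 0.482 ± 0.116 RPKM in NAc, and Hspa1b had 1.28 ± 0.240 RPKM and 0.451 ± 0.223 RPKM. These genes lie at chr17:34969190-34972156 and chr17:34956436-34959238 (minus strand, GRCm38) and are near-identical copies, so the authors' counting could split reads between them and their separate values are uncertain. How counting treated reads that match both is not given either, and if such reads were dropped, both levels and their sum are too low. The lowest PFC levels belonged to Dnajb13, a part of the ciliary radial spoke (0.0412 ± 0.0231 RPKM), Hspa1l, an HSP70 known mainly from testis (0.175 ± 0.0468 RPKM), the small heat shock genes Hspb2 (0.296 ± 0.112 RPKM) and Hspb7 (0.405 ± 0.115 RPKM), and Hspbap1 (0.605 ± 0.0588 RPKM). In NAc they belonged to Hspb7 (0.0144 ± 0.0184 RPKM), Hspa1l (0.0685 ± 0.0408 RPKM), Hspb2 (0.135 ± 0.0837 RPKM), Dnajb13 (0.175 ± 0.122 RPKM) and the small heat shock gene Hspb3 (0.282 ± 0.196 RPKM). The exons of 18 members overlap a measured gene on the opposite strand, and strand use in counting is not given in the sources used here, so reads of such partners cannot be told apart. This touches members named in the text, among them Dnajb13 (with Ucp2), Hspb2 (with Cryab), Hspd1 and Hspe1 (with each other), Hspa1l, Hsp90b1, Hspb6, Dnaja1, Dnajc1, Dnajc7, Dnajc19, Dnajc24 and Dnajc30. It also touches Dnaja3 (with Coro7), Dnaja4 (with Wdr61) and Dnajc14 (with Ormdl2 and Tmem198b). The exons of 3 members overlap a measured gene on the same strand, Dnaja3 (with Vasn), Dnajc14 (with Sarnp) and Hsp90b1 (with Gm15344), and shared reads could count for either gene there whatever the strand setting.

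**Figure D1:**
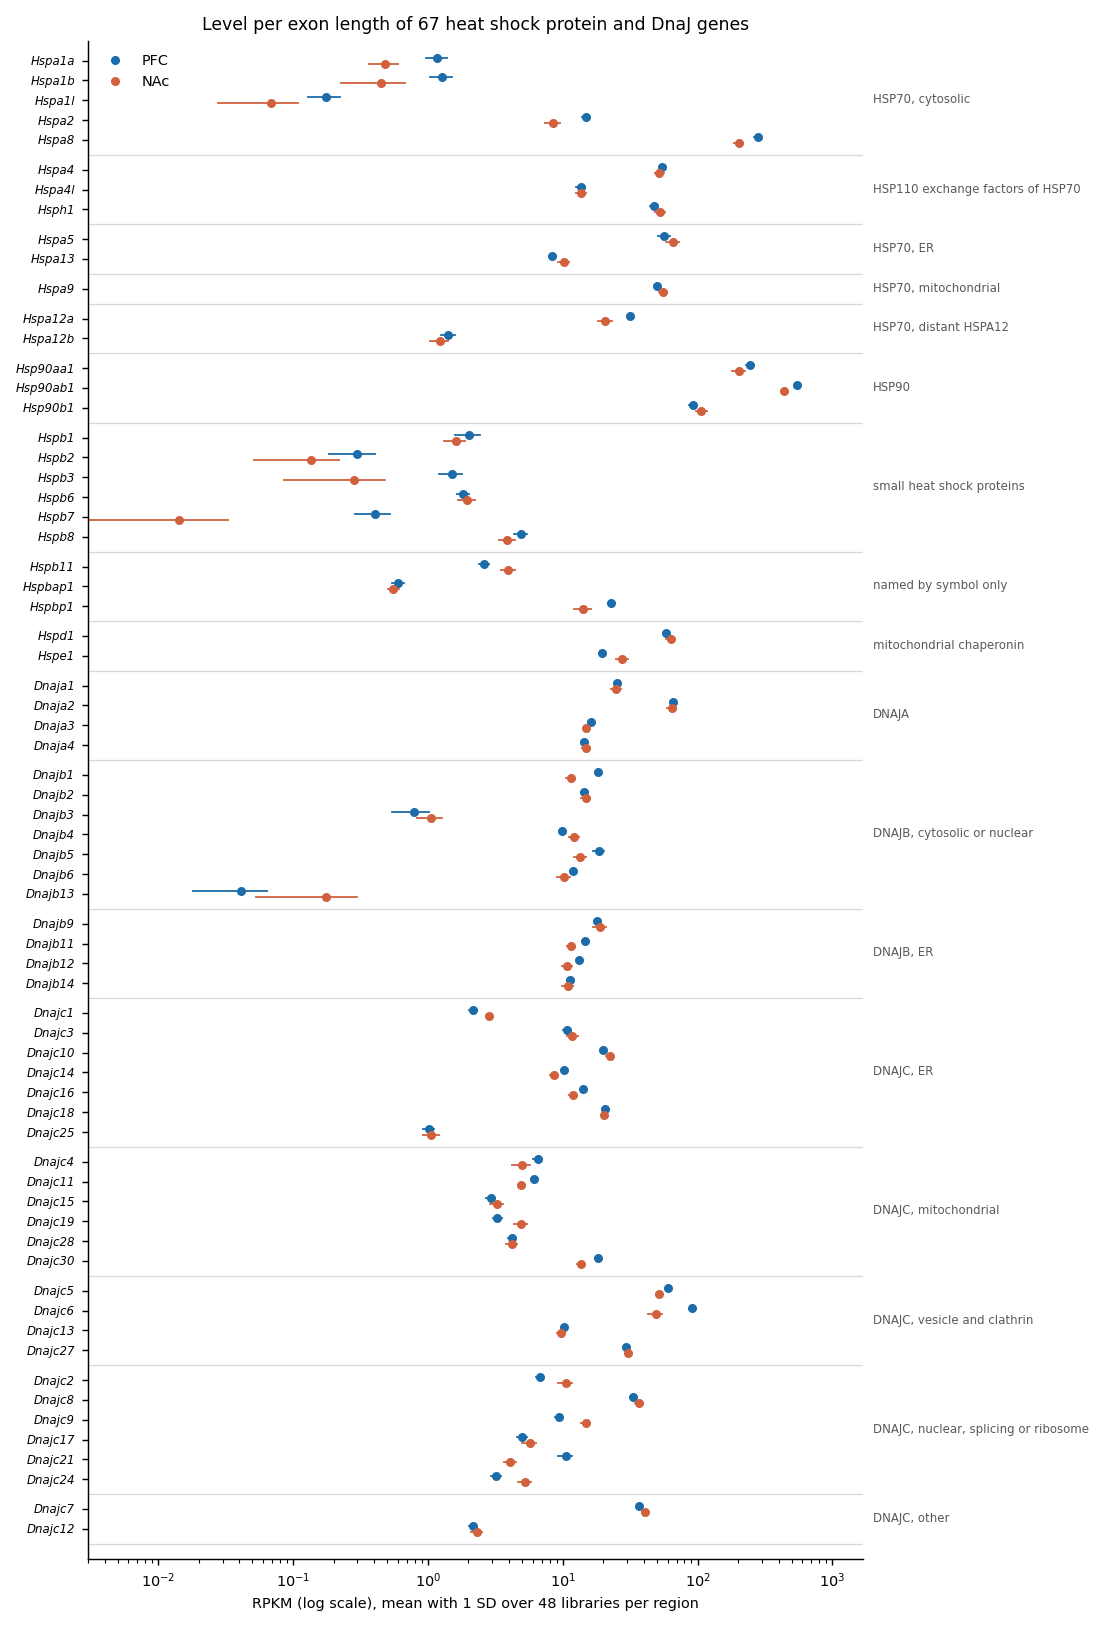
Mean RPKM (log axis) of the 67 genes in PFC and NAc, grouped by family and compartment, with bars of 1 SD over 48 libraries per region. Hsp90ab1 lies highest in both regions, and Dnajb13 in PFC and Hspb7 in NAc lie lowest.

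The first comparison asked whether repeated restraint went with a change in chaperone expression. No member passed the test for stress minus control, averaged over the 4 genotypes, in PFC (0 of 67) or NAc (0 of 66). The background was the same: edgeR's quasi-likelihood test called 0% of the 19292 genes tested in PFC and 0% of the 19684 in NAc at an adjusted p under 0.05. DESeq2 and limma-voom also called 0 members in each region. At an unadjusted p under 0.05 there were 2 members in each region, beside 1105 of all genes in PFC and 903 in NAc. The median log2 fold change over the members was 0.01 in PFC and -0.01 in NAc, against 0.00 for all genes in both.

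Taken over all genotypes, the inducible HSP70 genes had similar levels in stressed and control mice. Hspa1a in PFC had a low, median and high of 2.2, 3.23 and 4.55 CPM in 24 stressed mice and of 2.21, 3.35 and 4.47 CPM in 24 controls. The ranges overlapped over nearly their whole width, and the log2 fold change was -0.11 (edgeR adjusted p = 0.897, SE 0.0663). Hspa1b in PFC had medians of 3.41 CPM (1.90 to 4.45) with stress and 3.23 CPM (2.67 to 5.22) without, with a log2 fold change of -0.04 (SE 0.0800). In NAc, Hspa1a had 1.59 CPM (0.836 to 2.23) and 1.48 CPM (0.853 to 2.09), with 0.00 (SE 0.116). These groups overlapped as well. Hspa1b in NAc had 1.11 CPM (0.400 to 3.37) with stress and 1.39 CPM (0.508 to 2.85) without, with -0.19 (SE 0.209), from 28 to 272 counts per library. Summed over both copies, the PFC level was 6.66 ± 1.18 CPM (n = 24, SD) with stress and 6.77 ± 0.996 CPM (n = 24, SD) without. Medians, means and ranges here and below are not adjusted for cohort or group size, while the fold changes are. For Hspa1b in PFC the median was higher with stress, although the log2 fold change was below 0.

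Dnajb1, the main cytosolic HSP40 partner of the inducible HSP70s, had the second smallest p among the members in both regions, with a value below 0 in each. In PFC its median was 55.1 CPM (49.1 to 60.5) with stress and 56.7 CPM (51.5 to 61.4) without, and the log2 fold change of -0.05 (SE 0.0204) did not pass (edgeR adjusted p = 0.826). In NAc the medians were 37.5 CPM (33 to 44.7) and 39 CPM (36.9 to 44.5), with -0.09 (edgeR adjusted p = 0.997, SE 0.0330). Overlap was broad in both regions. Abundant chaperones had small values of either sign: Hspa8 had log2 fold changes of 0.02 (SE 0.0256) in PFC and -0.07 (SE 0.0360) in NAc, and Hsp90ab1 of 0.04 (SE 0.0209) and -0.04 (SE 0.0264). The stress-inducible cytosolic HSP90, Hsp90aa1, had 0.00 (SE 0.0297) and -0.02 (SE 0.0509), and Hsph1, an HSP110 exchange factor, had 0.03 (SE 0.0283) and -0.01 (SE 0.0353).

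Chaperones of the organelles and small heat shock proteins did not pass either. Hspa5, the main HSP70 of the ER, had a median of 219 CPM (193 to 252) in PFC of stressed mice and 237 CPM (193 to 292) in controls, with overlapping ranges and a log2 fold change of -0.06 (SE 0.0377). Hsp90b1 had 0.02 (SE 0.0266) in PFC and 0.02 (SE 0.0431) in NAc. Hspd1, the mitochondrial chaperonin, had 0.01 (SE 0.0197) and 0.01 (SE 0.0377), and its lid Hspe1 had 0.00 (SE 0.0228) and 0.00 (SE 0.0484). The small heat shock gene Hspb1 had -0.11 (SE 0.0863) and -0.06 (SE 0.0860).

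Of the DnaJ genes, the smallest p in PFC belonged to Dnajc27, a small GTPase with a J domain, with medians of 145 CPM (138 to 153) with stress and 140.4 CPM (119 to 150.1) without. The ranges overlapped, and its log2 fold change was 0.04 (SE 0.0182) with an edgeR adjusted p of 0.769. Dnajc8, a splicing factor, had 0.04 (SE 0.0220), the mitochondrial Dnajc30 0.04 (SE 0.0240), and the ER-associated HSP70 Hspa13 -0.05 (SE 0.0251). In NAc, Dnajc1, an ER membrane J protein, had medians of 35.6 CPM (31.3 to 38.5) with stress and 34.1 CPM (30.4 to 38) without. These overlapped too, and the log2 fold change of 0.08 (SE 0.0256) had the smallest p of the members there (unadjusted p = 0.002, edgeR adjusted p = 0.997). Hspa1l (-0.48, SE 0.308) and Dnajc30 (-0.05, SE 0.0340) were the last of the 5 smallest there. Dnajc30 thus had values of opposite sign in PFC and NAc, and the difference between them did not pass (-0.10, edgeR adjusted p = 0.956, SE 0.0403).

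**Figure D2:**
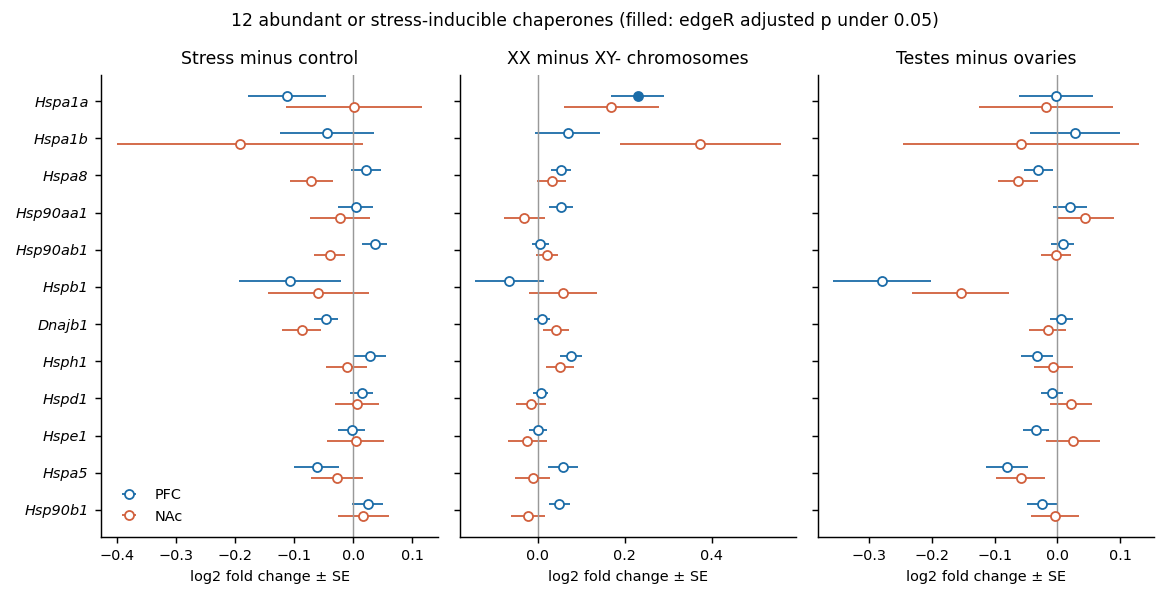
Log2 fold changes with SE (bars) of 12 abundant or stress-inducible chaperones for stress minus control, XX minus XY- chromosomes and testes minus ovaries, in PFC and NAc with 48 libraries each. The only filled point, Hspa1a in PFC for XX minus XY- chromosomes at 0.23, marks an edgeR adjusted p under 0.05.

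Within single genotypes the stress comparison called 0 members in each region, and 0% of all genes in each genotype and region. The genes that follow were chosen after their values were seen. Dnajb1 in PFC of XY- mice had a median of 53.2 CPM (49.1 to 55.4) in 6 stressed mice and 58.9 CPM (53.8 to 61.4) in 7 controls. The groups overlapped slightly, and the log2 fold change of -0.14 (SE 0.0359) had an unadjusted p of 0.000299 and an edgeR adjusted p of 0.217. Hspa1a in the same PFC libraries ran from 2.35 to 3.19 CPM with stress and from 2.99 to 3.90 CPM without, so the groups overlapped. Its log2 fold change was -0.32, between -0.36 and -0.27 under the alternatives, and it was not called. Hspa1b in NAc of XY-Sry mice had a median of 0.529 CPM (0.400 to 2.17) in 6 stressed mice and 1.45 CPM (1.07 to 2.85) in 6 controls, with a log2 fold change of -1.06 (edgeR adjusted p = 0.797, SE 0.384). The stressed animal 7 held the high value of 2.17 CPM, and without it the log2 fold change was -1.57 (edgeR adjusted p = 0.297). The NAc library of that animal also had the highest sum of cortical neuron markers of all, 1056 CPM. The other stressed XY-Sry mice had 183 to 460 CPM of these markers, and the XY-Sry controls had 573 to 841 CPM. Hspa1b was itself higher in PFC than in NAc. The part of cortical tissue in this stress value, with or without animal 7, was not tested. Hspa1a in NAc had 1.44 ± 0.424 CPM (n = 6, SD) in all stressed XY-Sry mice and 1.33 ± 0.345 CPM (n = 6, SD) in their controls.

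Tests of whether stress acted differently by chromosomes or by gonads, and of whether chromosomes and gonads combined, called 0 members in either region beside 0% of all genes. The member with the smallest p for stress by chromosomes was Hspa1b in NAc (1.05, edgeR adjusted p = 0.987, SE 0.370) and Dnajb1 in PFC (0.08, SE 0.0367). For stress by gonads it was Dnajc21 in PFC (0.21, edgeR adjusted p = 0.657, SE 0.0837) and Dnaja4 in NAc (0.12, SE 0.0519). The test of whether stress acted differently by region also called 0 members and 0% of all genes. Hspa8 had a difference of -0.10 (SE 0.0395) there and Hsp90ab1 of -0.08 (SE 0.0336), each with an edgeR adjusted p of 0.956.

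**Figure D3:**
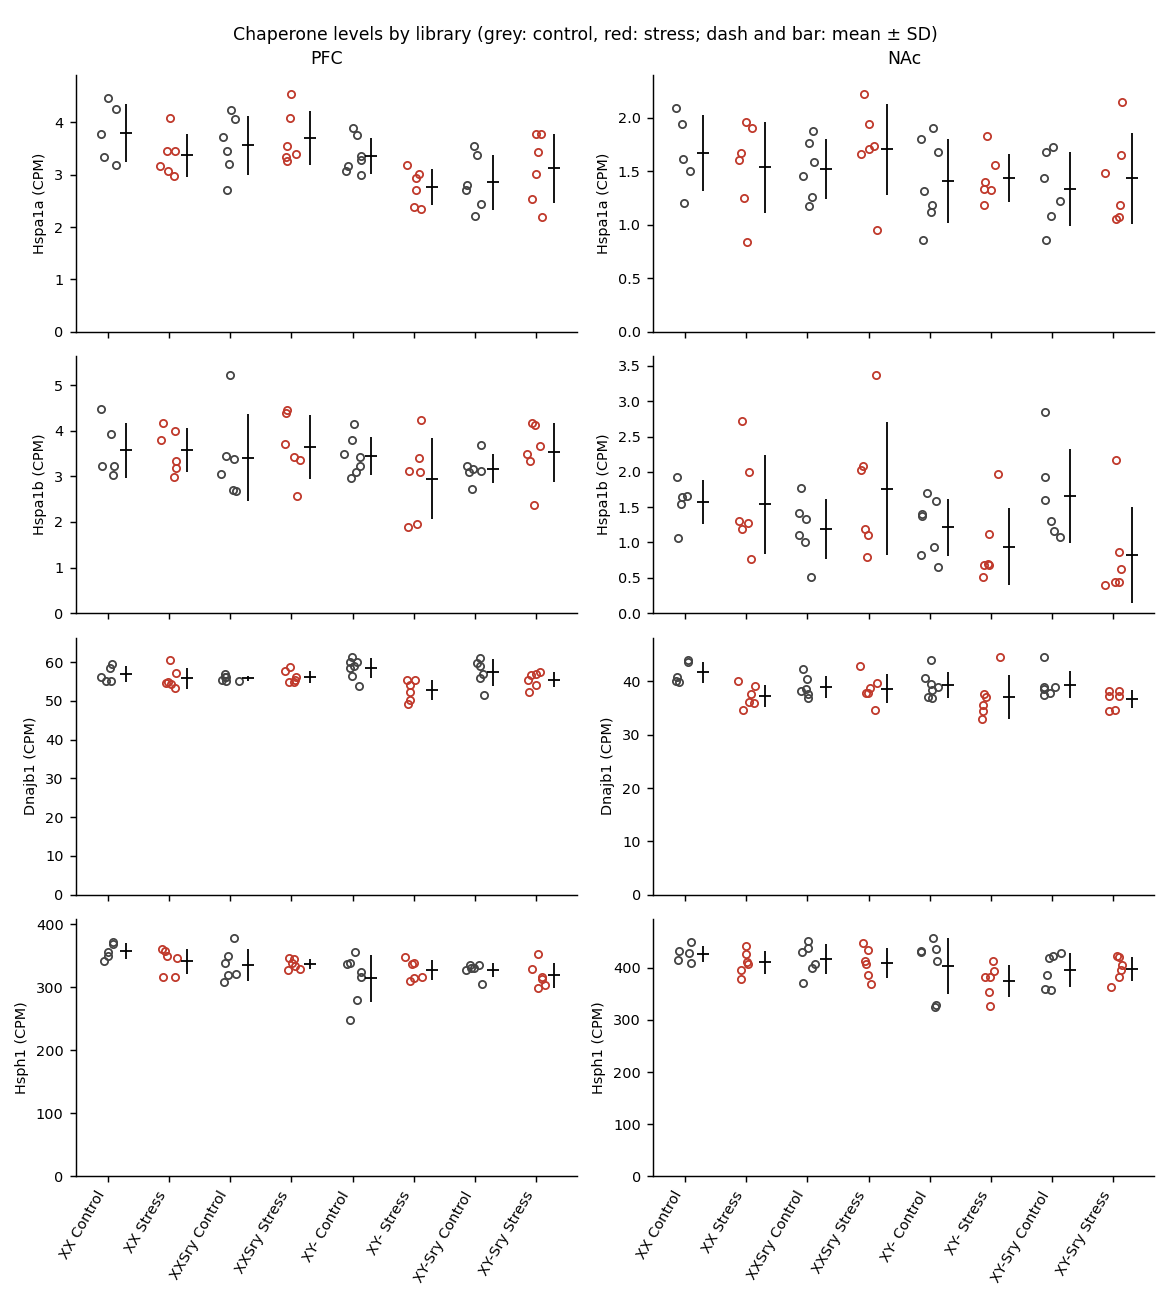
CPM of Hspa1a, Hspa1b, Dnajb1 and Hsph1 in each PFC (left) and NAc (right) library by genotype, controls in grey and stressed mice in red, with the mean and SD of each group. Stressed and control mice overlap in most genotypes, and Hspa1b in NAc spreads from 0.400 to 3.37 CPM.

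Chromosome complement gave the only call outside the comparison of regions. XX and XXSry mice (XX chromosomes) were compared with XY- and XY-Sry mice (XY- chromosomes), averaged over gonads and treatments. Hspa1a was higher in PFC with XX chromosomes. Its low, median and high were 2.70, 3.46 and 4.55 CPM in 23 mice with XX chromosomes and 2.2, 3.02 and 3.90 CPM in 25 mice with XY- chromosomes, so the ranges overlapped over most of their width. The means were 3.60 ± 0.504 CPM (n = 23, SD) and 3.04 ± 0.511 CPM (n = 25, SD), with a log2 fold change of 0.23 (edgeR adjusted p = 0.0439, SE 0.0610). This was 1 of 67 members, beside 1.12% of all genes tested (0.28% higher and 0.845% lower with XX), so the share of members was near the background. Controls and stressed mice averaged 3.80 ± 0.557 CPM and 3.37 ± 0.407 CPM in XX mice (SD, n = 5 and 6), and 3.56 ± 0.567 CPM and 3.70 ± 0.513 CPM in XXSry mice (n = 6 and 6). They averaged 3.36 ± 0.346 CPM and 2.76 ± 0.346 CPM in XY- mice (n = 7 and 6), and 2.85 ± 0.524 CPM and 3.12 ± 0.656 CPM in XY-Sry mice (n = 6 and 6). The lowest group mean was thus in stressed XY- mice and the highest in XX controls.

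The call lay close to the threshold. It was lost with limma-voom (adjusted p = 0.0508), with 2 surrogate variables (edgeR adjusted p = 0.0625) and when any 1 of 26 libraries was left out. Those were, by group and animal number, XX Control 2, 35 and 50, XXSry Control 3, 27, 34 and 51, XXSry Stress 4, 21 and 52, XY- Control 5, 6, 13 and 36, XY-Sry Stress 7, 8, 23 and 24, XY- Stress 14 and 41, XX Stress 18 and 20 and XY-Sry Control 33, 37, 46 and 48. Over all 48 such fits the log2 fold change stayed between 0.21 and 0.25, and the edgeR adjusted p ran from 0.0195 to 0.0900. Within cohorts 1, 2 and 3 the value was 0.17, 0.27 and 0.22, not called in any.

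The near-identical Hspa1b had 3.55 ± 0.665 CPM (n = 23, SD) with XX and 3.28 ± 0.611 CPM (n = 25, SD) with XY- chromosomes, with a log2 fold change of 0.07 (edgeR adjusted p = 0.797, SE 0.0741). The sum of both copies, which does not depend on how reads were split between them, was 7.15 ± 0.988 CPM (n = 23, SD) with XX and 6.32 ± 1.03 CPM (n = 25, SD) with XY- chromosomes. This sum would still miss reads that were dropped because they match both copies. In NAc the sum was 3.12 ± 0.854 CPM (n = 23, SD) and 2.56 ± 0.861 CPM (n = 25, SD). There Hspa1a had a log2 fold change of 0.17 (edgeR adjusted p = 0.918, SE 0.109), and Hspa1b of 0.37 (edgeR adjusted p = 0.836, SE 0.185). The NAc comparison called 0 of 66 members, beside 0.584% of all genes (0.0762% higher and 0.508% lower with XX).

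Marker genes of other cells were read in the same PFC libraries. Values below 0 were found for 7 of 7 meningeal, 5 of 5 blood and 7 of 8 endothelial markers, with median log2 fold changes of -0.20, -0.32 and -0.07, and none of these was called. Summed meningeal markers ran from 41.9 to 104 CPM with XX and from 36.7 to 153 CPM with XY- chromosomes, blood markers from 59.9 to 241 CPM and from 40.9 to 342 CPM. The markers called were Drd2 of striatal neurons (-0.65, edgeR adjusted p = 0.00785), C1qc of microglia (-0.20, 0.0382) and Gja1 of astrocytes (-0.10, 0.0425), all lower with XX chromosomes. Their part in the Hspa1a result was not tested.

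Other members did not pass in PFC. Hsph1 had a low, median and high of 308, 344 and 378 CPM with XX and 247, 327 and 355 CPM with XY- chromosomes, which overlapped (0.08, edgeR adjusted p = 0.163, SE 0.0261). Hspa8 had 0.05 (SE 0.0237) and Hsp90b1 0.05 (SE 0.0245). Dnajc21, needed for making the large ribosomal subunit, had 49.9 ± 6.28 CPM (n = 23, SD) against 45.7 ± 3.94 CPM (n = 25, SD), with 0.12 (edgeR adjusted p = 0.172, SE 0.0430). Dnaja1, a cytosolic HSP40, had 0.06 (SE 0.0226), and Hspb2 had -0.41 (SE 0.167). Values above 0 were found for 49 of the 67 members, with a median of 0.01, and for 9816 of all 19292 genes, with a median of 0.00. In NAc 26 of 66 members were above 0, with a median of -0.01. The smallest p there belonged to Hspb6 (-0.14, SE 0.0563), Dnajc1 (0.05, SE 0.0236), Hspb3 (0.68, SE 0.326), Hspa1b and the histone chaperone Dnajc9 (-0.07, SE 0.0364), with edgeR adjusted p from 0.611 to 0.844. The test of whether the chromosome effect differed between regions called 0 members and 0.0151% of all genes.

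Gonad type called no member (0 of 67 in PFC and 0 of 66 in NAc). The background was 0.0467% of all genes in PFC (0.00518% higher and 0.0415% lower with testes) and 0.0102% in NAc, all lower. DESeq2 and limma-voom also called 0 members. At an unadjusted p under 0.05 there were 5 members in PFC and 6 in NAc, beside 1301 and 1826 genes in all. The smallest p in PFC was that of Hspb1, a small heat shock protein that guards actin filaments, with a median of 1.72 CPM (1.42 to 2.38) in 24 mice with testes and 2.21 CPM (1.32 to 2.95) in 24 with ovaries. Mice with testes thus lay within the range of those with ovaries, and the log2 fold change of -0.28 (SE 0.0775) had an unadjusted p of 0.000749 and an edgeR adjusted p of 0.319. In the same PFC comparison 7 of 7 meningeal, 5 of 5 blood, 8 of 8 microglial and 7 of 7 astrocyte markers had values below 0, with medians of -0.22, -0.39, -0.10 and -0.03, none of them called. Summed meningeal markers ran from 36.7 to 116 CPM with testes and from 45.0 to 153 CPM with ovaries, blood markers from 49.2 to 232 CPM and from 40.9 to 342 CPM, and microglial markers from 326 to 403 CPM and from 320.4 to 524 CPM. Their part in the Hspb1 value was not tested. In NAc, Hspb1 had -0.15 (edgeR adjusted p = 0.538, SE 0.0770). Next in PFC came Dnajb13 (-0.69, SE 0.242), the small heat shock gene Hspb8 (-0.11, SE 0.0415), Hspa5 (-0.08, SE 0.0336) and Dnajc12 (0.06, SE 0.0278), with edgeR adjusted p from 0.471 to 0.683.

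In NAc the ribosome-bound Dnajc2 led, with a median of 58.3 CPM (46.4 to 68.2) with testes and 53.4 CPM (38.1 to 65.8) with ovaries, ranges that overlapped (0.15, edgeR adjusted p = 0.396, SE 0.0466). Dnajc25 (0.15, SE 0.0568), Dnajc4 (-0.16, SE 0.0617), Dnajb4 (0.08, SE 0.0378) and Dnajc7 (0.05, SE 0.0244) followed, with edgeR adjusted p up to 0.533. The inducible Hspa1a had 0.00 (SE 0.0593) in PFC and -0.02 (SE 0.106) in NAc. The test of whether the gonad effect differed between regions called 0 members and 0% of all genes.

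Partners of these chaperones outside the symbol rule gave no call either. Of 73 such genes tested in each region (HSP90 co-chaperones, HSP70 exchange factors and co-chaperones, heat shock factors, the cytosolic chaperonin CCT with prefoldin, alpha-crystallin B and the ER folding machinery), 0 were called by edgeR for stress, chromosomes or gonads. At an unadjusted p under 0.05 in PFC there were 1 (1.37%, against 5.73% of all genes) for stress, 11 (15.1%, against 11.6% of all genes) for chromosomes and 13 (17.8%, against 6.74% of all genes) for gonads. In NAc there were 3 (4.11%, against 4.59% of all genes), 1 (1.37%, against 5.97% of all genes) and 12 (16.4%, against 9.28% of all genes). Of those for gonads, 12 in PFC and 10 in NAc had values below 0. The smallest p for stress was that of Cdc37, which loads kinases onto HSP90, in PFC (0.05, edgeR adjusted p = 0.757, SE 0.0195), and of Stip1, which joins HSP70 to HSP90, in NAc (-0.09, edgeR adjusted p = 0.997, SE 0.0296). For chromosomes it was that of Xbp1, a transcription factor of the ER stress response, in PFC (0.08, edgeR adjusted p = 0.0965, SE 0.0229). For gonads, Creld2 (-0.10, SE 0.0337) and Sdf2l1 (-0.12, SE 0.0444) of the ER led in PFC.

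Most members differed between the regions. In the paired comparison of NAc and PFC over 48 mice, 60 of the 67 members were called, 26 of them higher and 34 lower in NAc. The background was 85.9% of all 19918 genes (44% higher and 41.9% lower), so the share of members called was near that of genes at large. The members' median log2 fold change was -0.04, against 0.02 for all genes. The level was lower in NAc of all 48 mice for 17 members (25.4%, against 16.6% of all genes), and higher in all 48 for 7 members (10.4%, against 15.7% of all genes). The ranges of the regions did not overlap for 11 members (16.4%, against 16.4% of all genes). Hspb7 is among the 34 and the 17, though it entered through its PFC libraries only, so the filter allowed only a lower NAc level. With most genes called, the counts by family that follow are no result about a family. Levels in this comparison are CPM with libraries of both regions scaled together. All 9 cortical neuron markers were lower in NAc (median log2 fold change -2.62), while all 9 striatal (4.63), all 7 oligodendrocyte (2.70) and all 8 ependymal and choroid markers (2.02) were higher. Only 5 of these 8 ependymal and choroid markers passed the filter in PFC, so the others entered through NAc. All 7 meningeal markers (-1.43) and all 10 immediate early genes (-0.95) were lower. The part of these markers' cells in the differences that follow was not tested.

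All 5 measured cytosolic HSP70 genes were lower in NAc, beside 41.9% of all genes. Hspa1a ran from 2.32 to 4.80 CPM around a median of 3.47 in PFC and from 0.792 to 2.12 CPM around a median of 1.46 in NAc. The ranges did not overlap, and the NAc level was lower in 48 of 48 mice, with a log2 fold change of -1.30 (edgeR adjusted p = 3.45e-24, SE 0.0614). Hspa1b ran from 2.00 to 5.43 CPM around a median of 3.53 in PFC and from 0.38 to 3.20 CPM around a median of 1.18 in NAc (-1.63, SE 0.102), with ranges that overlapped but a lower NAc level in 48 of 48 mice. Hspa1l had medians of 0.450 and 0.144 CPM (-1.41, SE 0.174). Hspa2, an HSP70 best known from sperm formation, had 39.3 CPM (35 to 45.3) in PFC and 22.5 CPM (17 to 30.2) in NAc (-0.81, SE 0.0333), with no overlap. The smallest of these differences was that of Hspa8, with a median of 1216 CPM (965 to 1333) in PFC and 866 CPM (728 to 1085) in NAc (-0.47, SE 0.0186).

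ER chaperones of the HSP70 and HSP90 families were higher in NAc. Hspa5 had a median of 239 CPM (202 to 306) in PFC and 279 CPM (219.8 to 338) in NAc and was higher in 44 of 48 mice (0.20, edgeR adjusted p = 3.92e-14, SE 0.0184). Hsp90b1 had 373 CPM (309 to 421) and 439.7 CPM (328 to 499), higher in 46 of 48 mice (0.20, SE 0.0190). Hspa13 had 57.1 CPM (49.3 to 64.5) and 70.4 CPM (54.3 to 81.6), higher in 48 of 48 (0.28, SE 0.0233). The ranges of all of these overlapped. The cytosolic HSP90 genes were lower in NAc, Hsp90ab1 with a median of 1659.7 CPM in PFC and 1317 CPM in NAc (-0.33, SE 0.0158), and Hsp90aa1 with 971 and 796 CPM (-0.30, SE 0.0273). Of the 4 ER genes of the DNAJB class 3 were lower and 0 higher, beside 41.9% and 44% of all genes. The lower ones were Dnajb11, which works with Hspa5 (-0.34, SE 0.0170), Dnajb12 (-0.29, SE 0.0225) and Dnajb14 (-0.07, SE 0.0218). Of the 7 ER genes of the DNAJC class 3 were lower, Dnajc14 (-0.26, SE 0.0156), Dnajc16 (-0.26, SE 0.0140) and Dnajc18 (-0.04, SE 0.0126), and 3 were higher, Dnajc3 (0.12, SE 0.0205), Dnajc10 (0.16, SE 0.0183) and Dnajc1 (0.41, SE 0.0163).

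The mitochondrial chaperonin was higher in NAc. Hspe1 had a median of 28.7 CPM (26.3 to 32.4) in PFC and 41.3 CPM (31.6 to 47.5) in NAc, higher in 48 of 48 mice (0.47, edgeR adjusted p = 1.80e-21, SE 0.0262). Its partner Hspd1 differed less, with 154 and 166 CPM (0.11, SE 0.0193), and the mitochondrial HSP70 Hspa9 had 214 and 238 CPM (0.14, SE 0.0179). Dnajc19, a J protein of the inner membrane import motor, had 13.2 and 20.3 CPM (0.57, SE 0.0245). Of the 6 mitochondrial DnaJ genes, 2 were higher and 3 lower, beside 44% and 41.9% of all genes.

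The largest regional difference among the members was in a small heat shock gene best known from heart and muscle. Hspb7 (chr4:141420779-141425311, plus strand, GRCm38) had a median of 1.11 CPM (0.239 to 1.90) in PFC, where each library had at least 18 counts. In NAc its median was 0.0222 CPM (0 to 0.246), and 10 of 48 libraries had no count. The log2 fold change was -5.10 (SE 0.237), from 4248 counts over all PFC libraries and 144 over all NAc libraries. Hspb7 failed the filter in NAc and entered this comparison only through its PFC libraries. The filter thus allowed only a lower NAc level, so the p-value of Hspb7 is left out. Hspb3 had 1.19 CPM (0.675 to 1.69) in PFC and 0.181 CPM (0 to 0.605) in NAc (-2.51, SE 0.169), with ranges that did not overlap. Hspb2 had medians of 0.247 and 0.11 CPM (-1.26, SE 0.177), while its neighbour Cryab, whose exons overlap it on the other strand, was higher in NAc (1.10, SE 0.0408). Of the 6 small heat shock genes measured, 5 were lower, Hspb7 among them, beside 41.9% of all genes. Hspb6 was higher (0.09, SE 0.0369).

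Among the DnaJ genes, Dnajc21 and the clathrin-uncoating Dnajc6 had the values farthest below 0. Dnajc21 had a median of 48.7 CPM (39.4 to 68.9) in PFC and 19.8 CPM (15.2 to 23.7) in NAc (-1.36, edgeR adjusted p = 2.37e-34, SE 0.0349). Dnajc6 had 541 CPM (469.5 to 577) and 294 CPM (221 to 388) (-0.92, SE 0.0283). Neither overlapped between regions. Dnajc5 of synaptic vesicles had 419 and 361 CPM (-0.22, SE 0.0133). Dnajb1 had 58.8 CPM (51.1 to 64.3) in PFC and 36.5 CPM (31.5 to 42.8) in NAc, without overlap (-0.68, SE 0.0187). Hspbp1, an exchange factor of HSP70, had 43.5 and 26.2 CPM (-0.70, SE 0.0316).

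Of the 6 nuclear, splicing or ribosome-linked DnaJ genes 5 were higher in NAc, beside 44% of all genes, and Dnajc21 was lower. Dnajc9 had a median of 22.4 CPM (19.4 to 24.8) in PFC and 35.5 CPM (28.7 to 41.4) in NAc (0.66, SE 0.0217). Dnajc24, which serves diphthamide synthesis on elongation factor 2, had 4.37 CPM (3.47 to 5.15) and 7.04 CPM (5.58 to 9.26) (0.71, SE 0.0362). Both were higher in 48 of 48 mice without overlap of the ranges. Dnajc2 had 34.1 and 53.0 CPM (0.62, SE 0.0266). Hspb11, an intraflagellar transport protein, had 5.39 and 8.21 CPM (0.58, SE 0.0343), and Dnajb3 had 0.778 and 1.10 CPM (0.43, SE 0.0863).

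Dnajb13 had the value farthest above 0. Its median was 0.109 CPM (0.0134 to 0.278) in PFC and 0.430 CPM (0.0290 to 1.64) in NAc, higher in 42 of 48 mice (1.98, edgeR adjusted p = 9.77e-11, SE 0.231). The ranges overlapped, and PFC libraries held as few as 1 count. Ependymal and choroid markers summed to 4.19 to 9.60 CPM in PFC and to 31.3 to 80.6 CPM in NAc. The part of these cells, and of the overlapping gene Ucp2, in the Dnajb13 value was not tested. Not called between regions were Dnaja1, Dnaja2, Dnajb2, Dnajb9, Dnajc25, Dnajc28 and Hspa4l, with values from -0.04 to 0.05. Without the 6 animals whose NAc libraries had the most cortical markers, an alternative chosen after seeing the data, 60 members were called, 26 higher and 34 lower. The animals kept still had up to 734 CPM of these markers. Most genes were called between regions (85.9%), so the unchanged count does not show what part cortical tissue had.

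**Figure D4:**
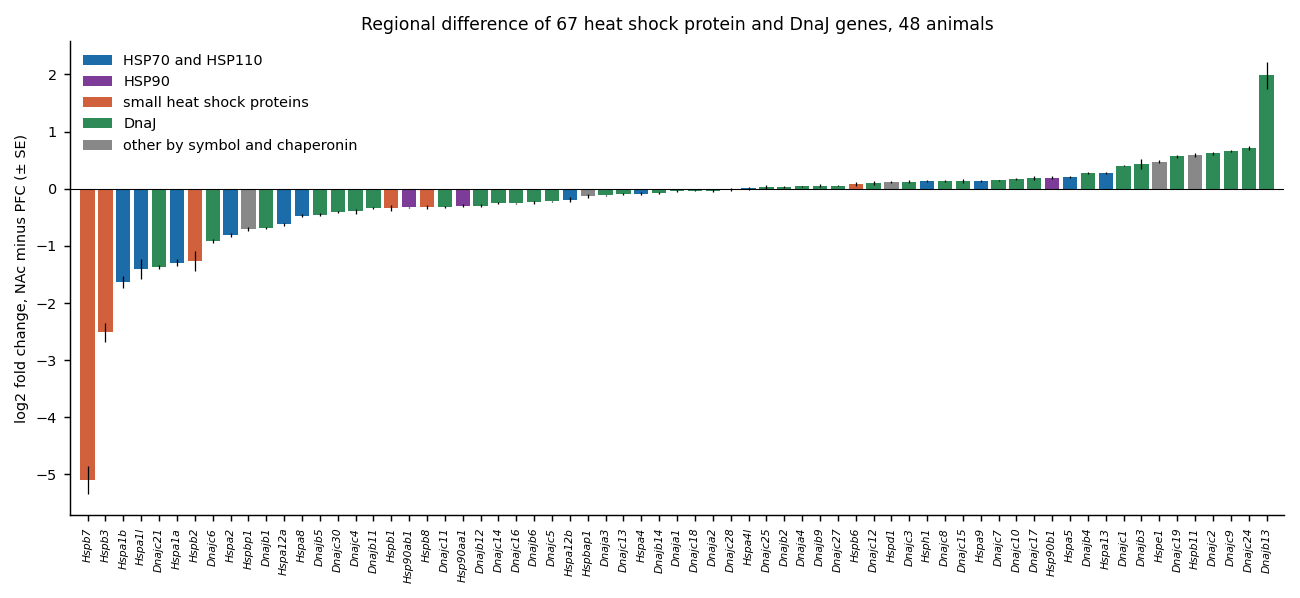
Log2 fold change NAc minus PFC with SE for the 67 genes, ordered by value and coloured by family, from the paired comparison in 48 mice. Hspb7 lies lowest at -5.10 and Dnajb13 highest at 1.98.

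How members varied together from mouse to mouse was examined for 7 pairs in each region, over 48 libraries on log2 CPM, with p-values from 100000 permutations adjusted over the 14 relations by the Benjamini-Hochberg method. The libraries of a region share their scaling, and punches differ in their mix of cells. Hspa5 and Hsp90b1, both of the ER, went together in PFC (Pearson r = 0.68, Spearman rho = 0.62) and in NAc (r = 0.80, rho = 0.80). The permutation p was 1e-05 in each case, the smallest they can give, and 3.5e-05 after adjustment. Without the 2 libraries farthest from the median of Hspa5, r was 0.62 and 0.76, and within cohorts 1, 2 and 3 it was 0.58, 0.75 and 0.71 in PFC and 0.56, 0.88 and 0.85 in NAc. Hspd1 and Hspe1, which lie head to head on chromosome 1 and whose exons overlap on opposite strands, had r = 0.77 (rho = 0.79, adjusted permutation p = 3.5e-05) in NAc, 0.75 without the 2 farthest libraries and 0.73, 0.84 and 0.74 within cohorts. In PFC they had r = 0.14 (rho = 0.14, adjusted permutation p = 0.386). Whether the regions differ in this was not tested.

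Hsph1 and its HSP70 partner Hspa8 had r = 0.85 (rho = 0.78, adjusted permutation p = 3.5e-05) in PFC, 0.74 without the 2 farthest libraries and 0.87, 0.56 and 0.92 within cohorts. In NAc they had r = 0.39 (rho = 0.42, adjusted permutation p = 0.0103), 0.33 without the 2 farthest and 0.36, 0.78 and 0.12 within cohorts. Hspa1a and Hspa1b had r = 0.57 (rho = 0.49, adjusted permutation p = 0.000196) in PFC and 0.54 (rho = 0.54, adjusted permutation p = 0.000257) in NAc, with reads that counting could share between them. Hspa1b and Dnajb1 had r = 0.00 in PFC and 0.51 (rho = 0.52, adjusted permutation p = 0.00058) in NAc. Within cohorts 1, 2 and 3 the NAc r of this pair was 0.53, 0.57 and 0.41. Both genes were lower in NAc than in PFC, and cortical markers varied among the NAc punches. The part of this in their r was not tested, nor was whether the regions differ in any of these pairs. The cytosolic HSP90 genes Hsp90aa1 and Hsp90ab1 had r = 0.34 in PFC (adjusted permutation p = 0.023) and 0.44 in NAc (0.0032). Dnajb1 and Hsph1 had r = -0.02 in PFC and 0.23 in NAc (adjusted permutation p = 0.157). Their rho in NAc was 0.38 (adjusted permutation p = 0.0113), with r of 0.33, 0.66 and -0.31 within cohorts.

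Levels in PFC and NAc of the same mouse were then compared for 12 abundant or stress-inducible members, with p adjusted over these 12. Hspa5 had the highest r, 0.66 (rho = 0.65, adjusted permutation p = 0.00012), which was 0.67 without the 2 farthest mice and 0.52, 0.66 and 0.58 within cohorts 1, 2 and 3. Its cohort means were not tested; they were 234 ± 22.3 CPM, 234 ± 19.7 CPM and 211 ± 16.1 CPM in PFC and 305 ± 25.6 CPM, 293 ± 34.5 CPM and 268 ± 22.5 CPM in NAc (SD, n = 23, 12 and 13). Hsph1 had r = 0.51 (adjusted permutation p = 0.0021), Hsp90b1 0.45 (0.00512) and Hspa8 0.38 (0.0259). Their rho values were 0.37, 0.30 and 0.32, with adjusted permutation p of 0.0598, 0.116 and 0.116. Without the 2 farthest mice r was 0.27, 0.24 and 0.28, so these relations rest in part on those mice. For the other 8 members r lay between -0.22 and 0.30, and none had an adjusted permutation p under 0.0883.

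**Figure D5:**
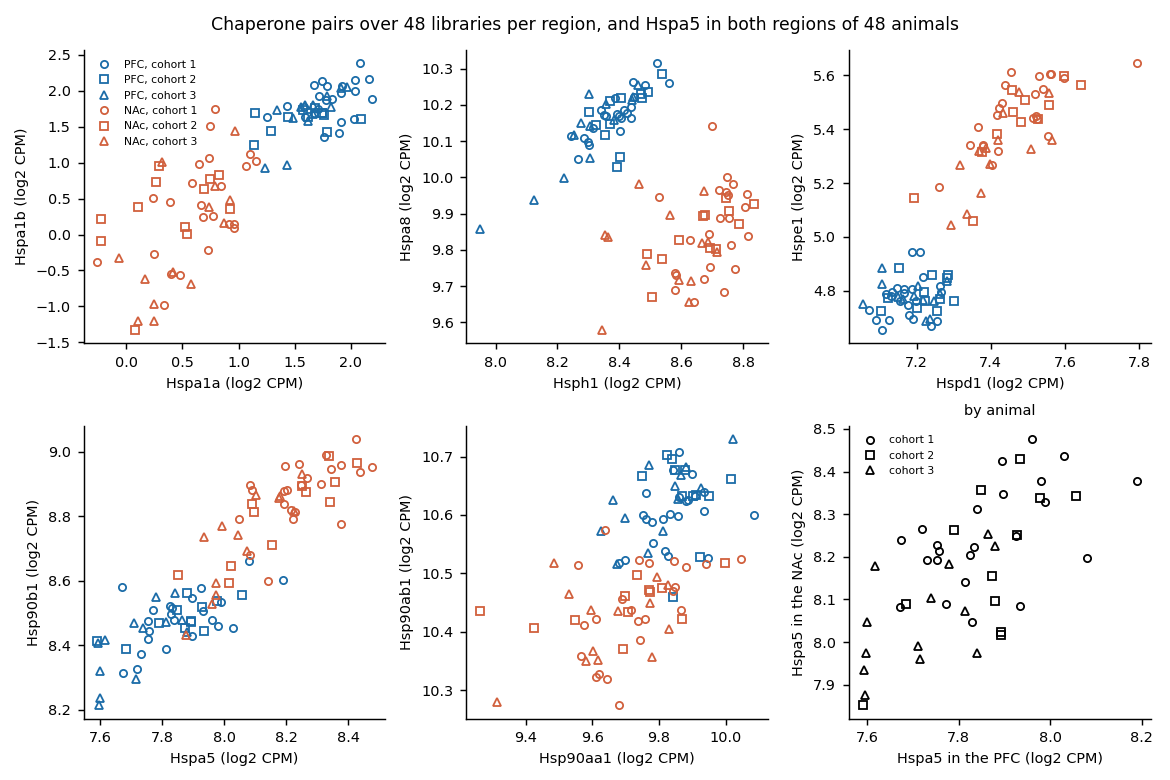
Log2 CPM of 5 chaperone pairs in the 48 PFC and 48 NAc libraries, and of Hspa5 in PFC against NAc of 48 mice by cohort. Hspa5 goes with Hsp90b1 in both regions (r = 0.68 and 0.80), and Hspd1 with Hspe1 in NAc (r = 0.77).

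Promoters are shown for members of the pairs above, since these genes are textbook targets of heat shock factor 1 or of the ER stress response. RefSeq promoters (GRCm38.p6, 250 bases before to 50 after the start) were matched by symbol for 55 of the 67 members. A heat shock element of 3 units, searched on both strands as GAANNTTC followed by any 2 letters and GAA, was found in 4 of the 55 members (Dnajb6, Hspd1, Hspe1 and Hsph1), which is 7.27% of them, against 0.662% of all 27025 genes of the table. Its shorter part GAANNTTC, which the longer motif contains, was found in 13 members (23.6%, against 9.04% of all genes), among them Hspa1a, Hspa1b and Hspb1. The ER stress response element, searched on both strands as CCAAT, any 9 letters and CCACG, was found in Hspa5, Hsp90b1 and Dnajc3, which is 5.45% of members and 0.137% of all genes. The Hspd1 and Hspe1 windows overlap by 285 bases, so their matches lie in a shared stretch. Capitals mark the matches to the 3-unit heat shock element in Hspd1 and Hsph1 and to the ER stress response element in Hspa5 and Hsp90b1. Each sequence runs 5′ to 3′ on the strand of the gene, and a match describes the letters and is no measured binding site. The Hspd1 window lies at chr1:55087883-55088182 (minus strand), Hsph1 at chr5:149636266-149636565 (minus strand), Hspa5 at chr2:34771840-34772139 (plus strand) and Hsp90b1 at chr10:86705395-86705694 (minus strand).
Hspd1: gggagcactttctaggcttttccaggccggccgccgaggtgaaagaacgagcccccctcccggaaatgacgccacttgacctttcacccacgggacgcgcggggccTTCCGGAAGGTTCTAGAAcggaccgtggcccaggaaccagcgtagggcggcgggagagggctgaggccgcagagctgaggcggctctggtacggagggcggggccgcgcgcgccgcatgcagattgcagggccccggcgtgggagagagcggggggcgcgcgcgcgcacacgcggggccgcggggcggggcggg
Hsph1: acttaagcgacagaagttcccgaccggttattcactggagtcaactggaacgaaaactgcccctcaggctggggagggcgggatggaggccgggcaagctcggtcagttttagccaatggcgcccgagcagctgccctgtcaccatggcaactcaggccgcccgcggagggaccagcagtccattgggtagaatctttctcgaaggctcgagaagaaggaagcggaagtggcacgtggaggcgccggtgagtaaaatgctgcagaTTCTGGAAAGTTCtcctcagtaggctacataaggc
Hspa5: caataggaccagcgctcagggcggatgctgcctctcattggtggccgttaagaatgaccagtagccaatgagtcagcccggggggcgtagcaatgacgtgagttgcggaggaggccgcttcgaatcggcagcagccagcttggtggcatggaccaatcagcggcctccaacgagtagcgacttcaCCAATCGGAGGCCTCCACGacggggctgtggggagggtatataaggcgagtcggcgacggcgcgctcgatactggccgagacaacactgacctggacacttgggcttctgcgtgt
Hsp90b1: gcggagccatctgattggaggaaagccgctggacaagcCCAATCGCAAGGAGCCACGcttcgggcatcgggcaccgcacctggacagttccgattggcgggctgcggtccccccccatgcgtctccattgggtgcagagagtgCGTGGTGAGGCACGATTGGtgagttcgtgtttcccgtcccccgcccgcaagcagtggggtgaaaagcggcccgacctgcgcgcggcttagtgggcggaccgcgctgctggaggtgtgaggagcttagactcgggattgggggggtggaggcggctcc
In Hspd1 the capitals hold 2 overlapping matches, the first of which begins 144 bases before the start, while the Hsph1 match begins 15 bases after it. The Hspa5 match begins 65 bases before the start. Hsp90b1 holds 2 separate matches on opposite strands, the first of which begins 212 bases before the start. Hspa5 and Hsp90b1 had the same regional log2 fold change of 0.20, and Dnajc3, which also holds the element, had 0.12. Hspd1 and Hspe1, with their shared window, had 0.11 and 0.47. Of 19 other genes of ER folding and the unfolded protein response, 7 were higher and 10 lower in NAc, beside 44% and 41.9% of all genes. The part of the promoter matches in any regional value was not tested.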

How the data were processed

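RNA-seq of PFC and NAc tissue punches gave 96 libraries (polyA mRNA libraries, paired reads, per the labels' protocols). The authors deposited whole-number read counts per Ensembl gene, 1 table per region, which are not normalized. The tools named, without roles, are HISAT2 2.2.0, Trimmomatic 0.38, FastQC 0.11.9, DESeq2 and edgeR, with the build GRCm38 (mm10), per the submitters' processing notes. The counting tool is not given in the sources used here, nor are its strand setting, the annotation or any filter. The deposited tables hold 19918 gene IDs, of which 19795 were found in GENCODE M21 and took their symbols from it.

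The main test on the counts was edgeR's quasi-likelihood test (version 4.0.16, TMM scaling, filterByExpr, robust) in R 4.3.3, with the 8 groups of genotype and treatment plus cohort, in each region separately. Stress, chromosomes and gonads are averages over the other factors. The regions were compared in 1 fit over 96 libraries with a replicate block for each animal and cohort within region. P-values were adjusted over all genes tested (Benjamini-Hochberg) with a threshold of 0.05. Correlations used 100000 permutations (scipy 1.17.1). Alternatives were DESeq2 1.42.0, limma-voom 3.58.1, RLE scaling, no filter, a filter of mean 1 CPM, no cohort term, 2 surrogate variables (sva 3.50.0), single cohorts and leaving out each library. Region-by-factor tests and leaving out 6 animals were added after seeing the data. The models were tested on simulated data.

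The titles give both libraries of an animal the same number, which sets the pairing. Over 14018 genes the deviations of same-animal libraries had a median correlation of 0.111, with 28 of 48 pairs over 0.1 and a lowest value of -0.192, against -0.00229 between different animals, and 9 of 48 animals correlated best with their own number. No duplicates were found among 242 pairs of libraries of the same group and region (smallest chi-square per degree of freedom 6.83). Libraries of different groups were not compared in this way. Depth was 67.55 to 104.4 M counts per PFC library and 45.9 to 120.8 M per NAc library. Each replicate is 1 animal, and the number of animals limits the precision.

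The members and gene lists were chosen with earlier results of these data known. Named genes were the members called in a comparison other than that of regions, the called members with the 10 highest and 10 lowest regional values, 12 abundant or stress-inducible chaperones, the 5 members with the smallest p where a comparison called fewer than 5, the 5 highest and 5 lowest levels per length in each region, and up to 4 genes of each pathway list. Other members were named to complete a family, after their values were seen.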

Additional observations from a re-analysis of the deposited data

Results flagged for a closer look

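In 12 of 192 checks of 12 chaperones over the groups of each region, the lowest or highest library stood apart from the rest of its group by Dixon's criterion, where chance gives about 1 in 20. Hspa1b was 2.17 CPM in the NAc of stressed XY-Sry animal 7, where the other 5 ran from 0.399 to 0.863 CPM, and 5.22 CPM in the PFC of XXSry control 3, where the others ran from 2.67 to 3.44 CPM. In the NAc, Dnajb1 was 44.5 CPM in XY-Sry control 48 (others 37.5 to 39 CPM), Hspa8 was 1130 CPM in XX control 10 (others 953 to 997 CPM), Hspa5 was 324 CPM in stressed XX animal 43 (others 251 to 275 CPM), and Hspd1 was 222 CPM in stressed XXSry animal 12 (others 165 to 176 CPM). Hsp90b1 was low there in stressed XY- animal 32, with 369 CPM (others 451 to 478 CPM). That animal and animals 7 and 48 were among the 6 with the most cortical markers in the NAc, and the part of this in these values was not tested. In the PFC, Hsp90aa1 was 830 CPM in stressed XX animal 25 (others 922 to 972 CPM), Hsp90ab1 was 1408 CPM in XY-Sry control 33 (others 1587 to 1638 CPM), and Hsph1 was 305 CPM in XY-Sry control 46 (others 327 to 336 CPM). Stressed XY- animal 26 was apart for both chaperonin genes in the PFC, with Hspd1 high at 151 CPM (others 140 to 144 CPM) and Hspe1 low at 25.9 CPM (others 27.3 to 27.8 CPM).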

How the results depend on the processing

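The regional count of 60 members called (26 higher, 34 lower) was also 60 with no replicate block, so the block changed no count, and 60 with DESeq2, with RLE scaling and with no filter. It was 55 with a filter of mean 1 CPM, which tests fewer members, 56 in control animals only, and 60 to 61 when each XX control animal was left out. For stress, gonads and each interaction, 0 members were called under each alternative run. The count for chromosomes in the PFC was 1 (Hspa1a) with DESeq2, RLE scaling, no filter, the filter of mean 1 CPM and no cohort term. It was 0 with limma-voom, with 2 surrogate variables and within cohorts 1, 2 and 3, and 0 to 1 when each library was left out, where 26 of 48 ended the call; within a cohort fewer animals are tested, and otherwise the cause was not tested. Among named members, 10 values changed sign, all within a single cohort and none called. In cohort 1 these were Hspb6 (0.00736) and Hspa1b (-0.0733) for chromosomes in the NAc. In cohort 2 they were Dnajb1 for stress (0.00462) and Dnaja1 for chromosomes (-0.00834) in the PFC, and Dnajc30 for stress (0.0323) and Dnajc2 (-0.115), Dnajc4 (0.157) and Dnajb4 (-0.0588) for gonads in the NAc. In cohort 3 they were Dnajc30 in the PFC (-0.0131) and Hspa8 in the NAc (0.0884) for stress. Cohorts 2 and 3 held only 2 stressed and 3 control mice, which limits the stress values there. Low counts limit Hspb7, Hspb2, Hspa1l and Dnajb13.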

Other observations

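Of 73 genes of the wider chaperone machinery, 60 were called between regions (edgeR, paired by animal). The background was 85.9% of all genes, with 44% higher and 41.9% lower in the NAc, and it applies to each list below. At an unadjusted p under 0.05 the shares were 83.6% of these genes and 86.4% of all genes, so the machinery was near genes at large. Of 16 HSP90 co-chaperones 5 were higher and 6 lower in the NAc. Fkbp5, an immunophilin that dampens the glucocorticoid receptor, was higher (0.71, SE 0.0221), as was Tomm70a, a mitochondrial import receptor that docks HSP90 and HSP70 (0.98, SE 0.0301), while the phosphatase Ppp5c (-0.94, SE 0.0242) and the kinase loader Cdc37 (-0.58, SE 0.0212) were lower. Of 17 HSP70 exchange factors and co-chaperones 3 were higher and 11 lower. Gak, which shares the clathrin-uncoating role of Dnajc6, was lower (-0.46, SE 0.0167), as were Bag2 (-0.85, SE 0.0332) and the ubiquitin ligase Stub1 (-0.58, SE 0.0244), and Sil1, the exchange factor of Hspa5, was higher (0.42, SE 0.0231).

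Of 19 genes of ER folding and the unfolded protein response 7 were higher and 10 lower, with a median log2 fold change of -0.22. The sensor Atf6 (-0.48, SE 0.0223), Sel1l (-0.33, SE 0.0158) and Herpud1 (-0.36, SE 0.0172) of ER-associated degradation and the disulfide isomerase Pdia6 (-0.30, SE 0.0148) were lower, whereas Hspa5 and Hsp90b1 were higher. Of 14 genes of the CCT chaperonin and prefoldin 7 were higher, among them Cct3 (0.31, SE 0.0141), and 5 lower, among them Pfdn2 (-0.36, SE 0.0195). Among 6 heat shock factors and regulators, Hsf4 was lower (-1.18, SE 0.0493) and Hsf2 higher (0.32, SE 0.0268), and Hsf1 was not called (-0.06, edgeR adjusted p = 0.150, SE 0.0411).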
